A study of Mus musculus with 8 samples.

Results

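The p53 and cell senescence genes described here are 8 genes chosen by name: Trp53, Mdm2, Cdkn1a, Cdkn2a, Ccng1, Sesn1, Igfbp7 and Gadd45a. Their probes were taken as every probe, controls left out, whose RefSeq accession belongs to one of these symbols. All 8 had a probe, among 21154 genes with a symbol on the array. Together they had 10 probes, with 2 each for Cdkn1a and Cdkn2a and 1 each for the other 6 genes. p53, the product of Trp53, is a transcription factor that accumulates when DNA is damaged or a cell is stressed. It switches on Cdkn1a, which encodes the cell cycle inhibitor p21, and Mdm2, which encodes the ligase that marks p53 for destruction, and it also acts on Ccng1, Sesn1 and Gadd45a. Cdkn2a encodes p16Ink4a and p19Arf, whose accumulation is a widely used sign of cell senescence, a lasting arrest of division with secretion of inflammatory factors, and Igfbp7 is a secreted binding protein that belongs to the senescent secretome. In adipose tissue, p53 activity and senescent cells have been linked to inflammation and insulin resistance.

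Gene expression was measured with one-colour Agilent microarrays, on which the brightness of a spot measures the amount of one transcript, in brown adipose tissue (BAT) of male C57BL/6NCrSlc mice. By the labels, mice underwent surgery when 11 weeks old, either thoracic aortic constriction (TAC), which narrows the aorta and puts a pressure load on the left ventricle, or a sham procedure (Sham), and their BAT was taken when they were 13 weeks old, with 4 mice in each group. One label field puts the tissue at 2 weeks after the operation and another at 4 weeks. The question the design poses is how pressure overload of the heart alters gene expression in BAT. Scanner intensities were used for 3 Sham arrays (replicates 2 to 4) and the 4 TAC arrays, and a deposited table of scaled intensities held all 8 arrays. A level below is the log2 intensity minus the 75th percentile of its array, so a positive level is brighter than most spots of its array. Among spots, 64.3%, 58.4% and 62.7% were well above background on the Sham arrays, and 59.7%, 57.4%, 54.5% and 59.8% on TAC replicates 1 to 4. The 7 scanned arrays shared 1 slide with Sham in one row and TAC in another, and slide row and surgery therefore cannot be told apart. TAC replicate 1 stood apart from the other 6 arrays, and the fold changes of the tested members are also given without it. It lay at 89.6 on the first principal component (39.3% of the variance), against -8.49 to 3.65 for the other TAC arrays and -32.6 to -20.4 for Sham. The brown adipocyte markers Ucp1 and Cidea were well above background on all 7 arrays.

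Trp53, the regulator itself, had a level of -2.28, -2.31 and -2.22 on Sham replicates 2, 3 and 4. On TAC replicates 1 to 4 it was -1.44, -2.29, -2.12 and -2.001. The Sham arrays lay close together (SD 0.05), TAC replicate 2 lay among them, and the other 3 TAC arrays lay above, with replicate 1 the highest. Trp53 was 0.31 higher after TAC on the log2 scale (standard error 0.20, 95% confidence interval -0.15 to 0.77), or 1.24-fold, with an unadjusted p of 0.161 and an adjusted p of 0.529 in limma. Without TAC replicate 1 the difference was 0.13 (interval -0.10 to 0.37).

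Mdm2, which encodes the ubiquitin ligase that holds p53 down, was at 3.54, 3.76 and 3.66 on the Sham arrays and at 3.46, 3.54, 3.62 and 3.47 on the TAC arrays. TAC replicates 1 and 4 lay below every Sham array and the others lay within the Sham range. The log2 difference was -0.13 (standard error 0.09, interval -0.34 to 0.08), with an adjusted p of 0.562 in limma, and -0.11 without TAC replicate 1. Without Sham replicate 3 it was -0.08, and without Sham replicate 2 it was -0.18. Trp53 thus had the higher mean and Mdm2 the lower mean after TAC, and neither difference passed the test.

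Cdkn1a encodes p21, the inhibitor of cyclin-dependent kinases through which p53 stops the cell cycle. Its promoter windows are shown because the RefSeq table of GRCm38.p6 lists 2 starts for this gene and its 2 probes are for different transcripts. All 8 genes had an entry in that table, with 11 windows in all. The windows run from 250 bases before to 50 bases after each start on the plus strand, at chr17:29090729-29091028 for the upstream start and chr17:29093519-29093818 for the downstream start. Capitals mark a match to CATGNNNNNNCATG, the core letters of a pair of adjoining p53 half-sites, chosen after the windows were read. The motif reads the same on both strands.
Cdkn1a upstream start: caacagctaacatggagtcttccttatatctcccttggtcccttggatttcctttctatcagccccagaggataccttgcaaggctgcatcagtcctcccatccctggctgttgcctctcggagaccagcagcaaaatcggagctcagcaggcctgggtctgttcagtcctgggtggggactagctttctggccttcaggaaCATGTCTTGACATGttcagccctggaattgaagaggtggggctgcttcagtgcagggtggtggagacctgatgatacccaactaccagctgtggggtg
Cdkn1a downstream start: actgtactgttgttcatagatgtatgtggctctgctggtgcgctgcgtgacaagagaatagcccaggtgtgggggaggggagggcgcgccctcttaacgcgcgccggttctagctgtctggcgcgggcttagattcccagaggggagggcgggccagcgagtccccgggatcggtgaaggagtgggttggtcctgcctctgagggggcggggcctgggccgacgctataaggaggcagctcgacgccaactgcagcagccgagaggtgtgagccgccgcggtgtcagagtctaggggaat
The upstream window held 1 match, which began 48 bases before the start, and the downstream window held none. Among 32851 windows of the same length, 0.712% held the motif. None of the other 9 windows of the 8 genes held it. The 10-letter p53 half-site itself was matched in 6 of the 11 windows, those of Trp53, Mdm2, Ccng1 and Gadd45a, the upstream one of Cdkn1a (where 1 of 2 matches overlaps the capitals) and 1 of 2 of Sesn1, against 8.36% of all windows. A match is a description of letters and shows no binding.

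The brighter Cdkn1a probe was at 4.02, 4.20 and 4.87 on Sham replicates 2, 3 and 4. On the TAC arrays its level was 4.51, 4.57, 4.75 and 4.86. The 4 TAC arrays lay close together (SD 0.16), whereas the Sham arrays spread widely (SD 0.45), with replicates 2 and 3 below every TAC array and replicate 4 above them all. The probe had 10 spots on each array, whose SD within an array was between 0.02 and 0.05, and the spread between mice and that between labellings or hybridizations cannot be told apart with 1 array for each mouse. Cdkn1a was 0.31 higher after TAC (standard error 0.21, interval -0.19 to 0.80), or 1.24-fold, with an unadjusted p of 0.188 and an adjusted p of 0.555 in limma. Without TAC replicate 1 the difference was 0.36. Without Sham replicate 4 it was 0.56 (unadjusted p = 0.00695 in limma), and without Sham replicate 2 it was 0.14, so its size depended on which Sham array was included.

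The second Cdkn1a probe, for another RefSeq transcript, was dim. It was well above background on 1 of 3 Sham arrays and on 3 of 4 TAC arrays. Its level was -4.89, -5.13 and -4.99 in Sham and -4.74, -3.72, -4.98 and -3.91 after TAC, so that TAC replicates 2 and 4 stood well above the rest, TAC replicate 1 slightly above Sham, and TAC replicate 3 within the Sham range. It was tested only because the TAC arrays passed the filter, and most of its Sham signals were not well above background. The difference of 0.66 (interval -0.08 to 1.41, or 0.80 without TAC replicate 1) is therefore not read as a measured fold change. TAC replicate 4 was among the 2 highest arrays for both probes, while Sham replicate 4 led on the brighter probe only. Which probe reports which start site was not given in the sources used here.

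Ccng1, a p53 target that encodes cyclin G1, was the member whose groups separated. Its promoter window is at chr11:40755237-40755536 on the minus strand of GRCm38.p6, with its single p53 half-site match, which began 185 bases before the start, in capitals.
Ccng1 start: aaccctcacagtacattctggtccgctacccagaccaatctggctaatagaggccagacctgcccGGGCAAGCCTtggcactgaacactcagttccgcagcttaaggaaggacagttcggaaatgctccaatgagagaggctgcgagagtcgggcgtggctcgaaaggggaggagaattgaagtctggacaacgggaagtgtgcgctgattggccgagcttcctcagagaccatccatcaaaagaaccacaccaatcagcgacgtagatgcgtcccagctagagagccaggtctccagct
The level of Ccng1 was 3.50, 3.43 and 3.31 on the Sham arrays and 3.11, 3.30, 3.23 and 3.29 on the TAC arrays. Every TAC array lay below every Sham array, although the lowest Sham and the highest TAC array (replicates 4 and 2) nearly met. Over all tested probes the groups separated downward for 10.7% and upward for 5.36%, so 1 of the 7 tested genes separating is near what the array showed in general. Ccng1 was lower after TAC by a log2 difference of -0.18 (standard error 0.09, interval -0.39 to 0.03), with an unadjusted p of 0.0862 and an adjusted p of 0.452 in limma. Without TAC replicate 1, its lowest array, the difference was -0.14 (interval -0.34 to 0.06).

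Gadd45a, a stress sensor that acts in growth arrest and DNA repair, was at -1.37, -1.88 and -2.03 in Sham and at -0.54, -1.88, -0.90 and -1.70 after TAC. TAC replicates 1 and 3 were above every Sham array and TAC replicates 2 and 4 lay within the Sham range. Its difference of 0.51 was the largest among the genes' brightest probes, 1.42-fold, and so was its standard error of 0.35 (interval -0.33 to 1.34, adjusted p = 0.561 in limma). Without TAC replicate 1 it was 0.27 (interval -0.46 to 1.01).

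Sesn1, which encodes the antioxidant and mTORC1 regulator sestrin 1, was at 2.44, 1.95 and 2.56 in Sham and at 2.43, 2.36, 1.91 and 2.55 after TAC. One low array in each group, Sham replicate 3 and TAC replicate 3, set the spread, and the group means of 2.32 and 2.31 were nearly equal. The difference was -0.01 (interval -0.49 to 0.47), or -0.04 without TAC replicate 1; the interval allows a difference in either direction.

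Igfbp7, the secreted senescence-associated member, was at -1.93, -2.28 and -2.23 in Sham and at -1.52, -2.17, -2.07 and -2.55 after TAC. TAC replicate 1 was the highest array and TAC replicate 4 the lowest, with Sham in between. The mean difference of 0.07 (interval -0.49 to 0.63) turned to -0.12 (interval -0.51 to 0.28) without TAC replicate 1. Igfbp7 is also made by endothelial cells, and the 12 endothelial markers had means between -0.07 and 0.10 relative to Sham on the 7 arrays, with 2 of 12 higher at an unadjusted p under 0.05 in limma, against 4.24% of all tested probes. Cldn5, also an endothelial marker, went the other way (-0.70, unadjusted p = 0.05003 in limma). Their part in the values of Igfbp7 was not tested. In whole tissue, fewer cells of a type and less RNA per cell cannot be told apart.

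Cdkn2a, the senescence marker itself, was not well above background with either of its 2 probes on any of the 7 arrays. Its measured signals of -6.46 and -6.94 (Sham means) and -6.20 and -6.62 (TAC means) are therefore not read as levels, and no fold change or test is given. Both probes carry the same RefSeq transcript, so the products of the gene cannot be separated here.

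**Figure D1:**
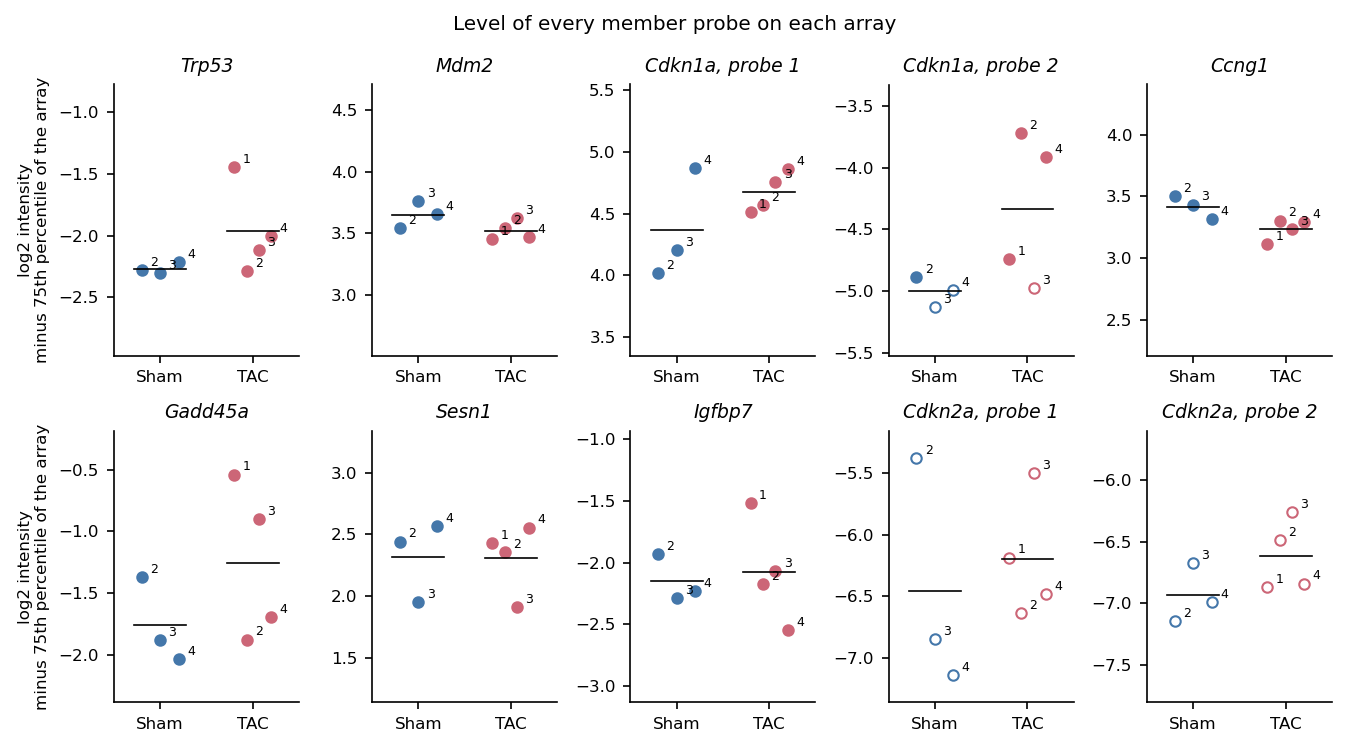
Level of every probe of the 8 genes on each scanned array, as log2 intensity minus the 75th percentile of the array. Points carry the replicate number, lines are group means, and open points mark signals not well above background.

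Of the 8 genes, 7 were tested, through 8 probes. None passed an adjusted p of 0.05 in limma, as was true of all 33359 probes tested on the array (0.0%), among which 0.0560 was the smallest value. When p was not adjusted, 0 of the 7 genes were higher and 0 were lower at 0.05, against 4.24% of all tested probes higher (1416) and 8.61% lower (2871). Without Sham replicate 3 these probe counts were 852 and 1633, and the count of the 7 genes was still 0 in each direction. It was 1 higher without Sham replicate 4 (Cdkn1a, unadjusted p = 0.00695 in limma) and with the replicate number as a block in the table of 8 arrays (Cdkn1a, unadjusted p = 0.0400 in limma), and 1 lower by the t-test (Ccng1). Arrays of equal replicate number were little alike, so the block is not read as a pairing of mice. By direction alone, 4 of the 7 genes had the higher mean after TAC (Trp53, Cdkn1a, Igfbp7 and Gadd45a). The other 3 had the lower mean (Mdm2, Ccng1 and Sesn1). Over all tested probes, 14492 had the higher mean and 18867 the lower. Igfbp7 was lower without TAC replicate 1, which made 3 genes higher and 4 lower. Sesn1 was higher in the table of 8 arrays, which made 5 and 2, and higher by 0.04 under quantile normalization. These directions are those of the means, and the confidence interval of each of the 7 genes included 0.

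**Figure D2:**
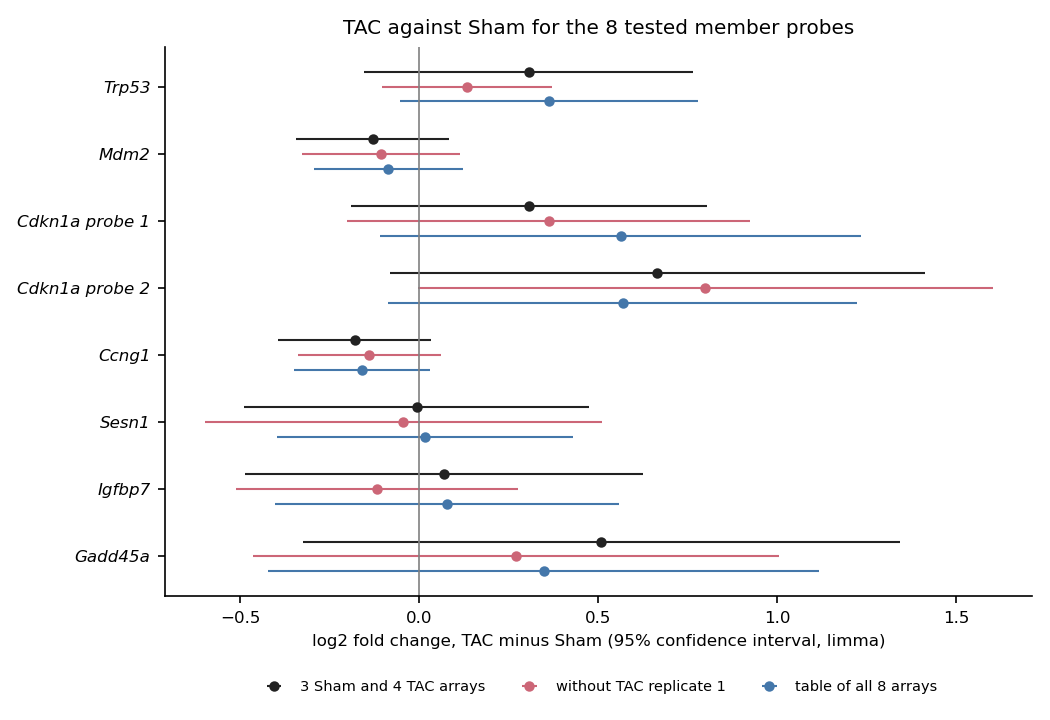
Log2 fold change of TAC over Sham for the 8 tested probes, with 95% confidence intervals from limma, for the 7 scanned arrays (black), without TAC replicate 1 (red) and for the table of all 8 arrays (blue). Every interval shown includes 0, and most Sham signals of the second Cdkn1a probe were not well above background.

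The table of all 8 arrays adds Sham replicate 1. Its levels have another zero and are compared only among themselves. Cdkn1a was at 3.48 on Sham replicate 1, below 4.22, 4.38 and 5.06 on the other Sham arrays and 4.69, 4.74, 4.93 and 5.03 on the TAC arrays. With it, 3 of 4 Sham arrays lay below every TAC array, the difference grew to 0.56 (standard error 0.29, interval -0.11 to 1.23), and Cdkn1a had an unadjusted p of 0.0892 and an adjusted p of 0.417 in limma. With the replicate number as a block the same difference had an unadjusted p of 0.0400 in limma. Sham and TAC arrays of equal number were little alike in this table. Their deviations from the group means had r = 0.269 for replicate 1 and 0.0194 to 0.0568 for the others. The block is therefore not read as a pairing of mice. Trp53 was also lowest on that array, at -2.36 against -2.13 to -2.03 on the other Sham arrays, with a difference of 0.36 (interval -0.05 to 0.78). Ccng1 was at 3.48 on Sham replicate 1, again above every TAC array, of which the highest rounds to the same 3.48 (difference -0.16, interval -0.35 to 0.03). In this table the groups separated downward for 6.32% of the probes, and 9.49% were lower at an unadjusted p under 0.05. Gadd45a was higher on Sham replicate 1 (-0.97) than on any other Sham array, and its difference shrank to 0.35. Mdm2 was at 3.62 on Sham replicate 1, below all 4 TAC arrays (3.64 to 3.80), so in this table no TAC array lay below every Sham array, and its difference was -0.09. The table gave Igfbp7 a difference of 0.08 and Sesn1 0.02, the last with the opposite sign. Relative to the other Sham arrays, Sham replicate 1 also had raised means of lymphocyte markers (0.61), secretory factors (0.34) and macrophage markers (0.26). Skeletal muscle markers were raised there too (0.98), while erythroid markers (-0.79) and brown adipocyte markers (-0.23) were lowered. The part of all these markers in the values of Sham replicate 1 was not tested.

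TAC replicate 1 was the highest of the 7 arrays for 3 of the 7 genes (Trp53, Gadd45a and Igfbp7) and the lowest for 2 (Mdm2 and Ccng1). Over all tested probes it was the highest array for 18.0% and the lowest for 36.3%. The same array was high in markers of other cells, more so than Sham replicate 1 in the table. Macrophage markers (17 genes) had a mean 1.28 above Sham on it and -0.39 to -0.11 on the other TAC arrays, and among their defining genes Adgre1 was at 0.76 against -1.27 to -1.10 and Cd68 at 2.54 against 0.28 to 0.65. It was the highest of the 7 arrays for 15 of the 17 macrophage markers, but the lowest for Cd163 (-4.59). Cd14 was at 1.13, within the 1.06 to 1.33 of the other TAC arrays. The median log2 fold change of the 17 was 0.16, but -0.31 without TAC replicate 1. At an unadjusted p under 0.05 in limma, 6 of the 17 were then lower and 1 higher. Of all 33359 tested probes, 2889 were lower and 1506 higher without that array. Lymphocyte markers (7 tested genes) were at 1.24 against -0.37 to -0.003, and Ptprc, the common leukocyte antigen, was at -0.68 against -2.98 to -2.76. Proliferation genes (14 tested genes) were at 0.81 against -0.12 to -0.08, with Mki67 at -0.09 against -1.95 to -1.67, and Top2a was well above background on TAC replicate 1 only. Of the 14, 11 were highest on that array and Tyms was lowest. Cdk1 was well above background on the 3 Sham arrays and on 0 TAC arrays, TAC replicate 1 included, so it passed the filter only through Sham and no difference is given. Fibroblast and preadipocyte markers were at 0.46 against -0.24 to -0.01, with Pdgfra at 0.40. The brown adipocyte markers were lowest there, at -1.21 against -0.55 to -0.01, with Ucp1 at 8.37 against 8.97 to 9.22. Their mean was lower after TAC in 11 of 12 (median -0.19, or -0.16 without TAC replicate 1), against 18867 of all 33359 tested probes. At an unadjusted p under 0.05 in limma 2 of 12 were lower, against 8.61% of all tested probes, and 0 passed the adjusted threshold. In the table of 8 arrays 4 of 12 were lower, against 9.49%. Without TAC replicate 1 there were 2 lower and 1 higher, against 2889 and 1506 of all 33359 tested probes. Ucp1 had every TAC array below every Sham array, with a difference of -0.61 (unadjusted p = 0.0243, adjusted p = 0.333 in limma), and of -0.43 without TAC replicate 1 (unadjusted p = 0.00987 in limma). Skeletal muscle markers were higher after TAC in 13 of 13 (median 0.99, or 0.77 without TAC replicate 1), a larger difference than that of any member, with 0 at an unadjusted p under 0.05 in limma. Their mean ranged from -0.89 to 0.85 in Sham, was 1.61, 1.19 and 1.501 on TAC replicates 1, 2 and 4, above every scanned Sham array, and was -0.56 on TAC replicate 3. Erythroid markers ranged from -0.56 to 0.51 on the 7 scanned arrays. The part of these cells in the values of the members, those of TAC replicate 1 included, was not tested. Without that array, the differences of Trp53 and Gadd45a were smaller, while that of Cdkn1a was slightly larger.

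**Figure D3:**
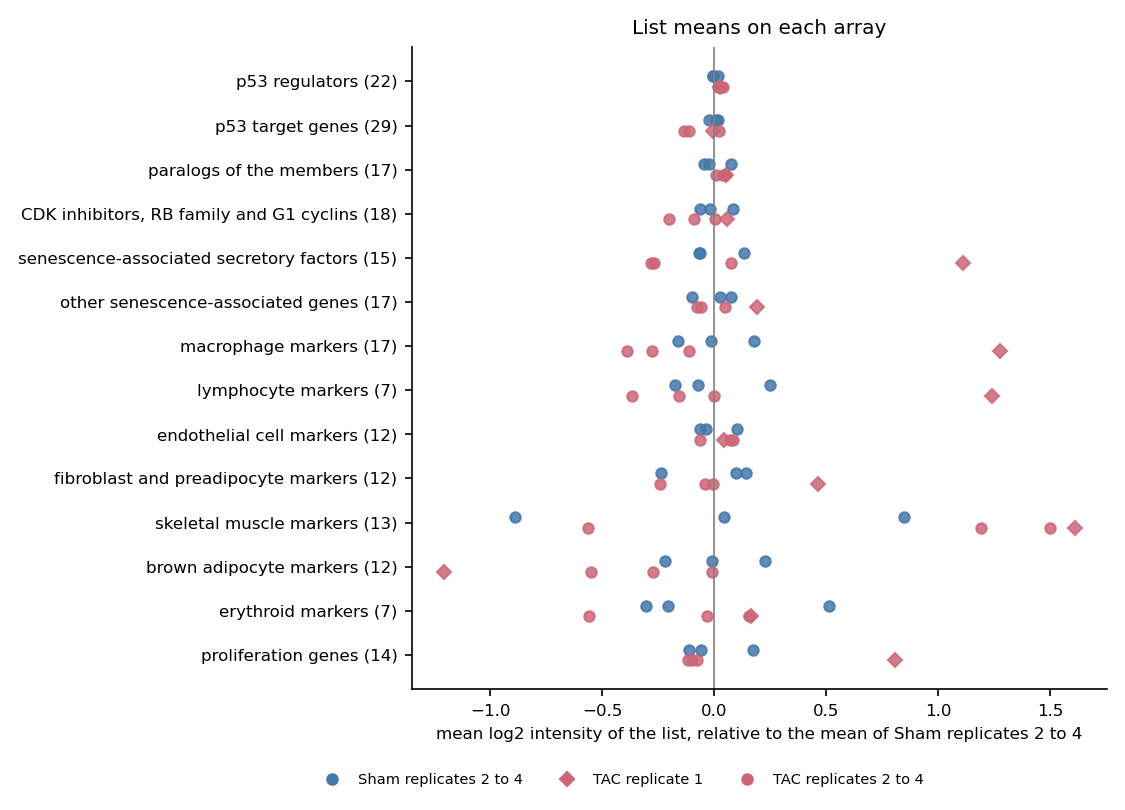
Mean log2 intensity of the genes of a list by array, set against the average of the 3 Sham arrays, with the number of genes in brackets. TAC replicate 1 (diamonds) is the highest array for secretory factors and for macrophage, lymphocyte and proliferation genes. It is also the highest for skeletal muscle, fibroblast and preadipocyte, and other senescence genes, and the lowest for brown adipocyte markers. The means of the p53 regulators lie within 0.05 of Sham on all arrays.

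For each tested member the 2 genes with the most similar levels over the 7 arrays were taken among 19718 probes with a symbol. With so many probes and 7 arrays, a high correlation is bound to occur, and it is given as a description. Mdm2 was followed most closely by 1 of 3 probes of Cop1, which encodes another ubiquitin ligase of p53 (Pearson r = 0.99), and then by Mgat2 (r = 0.99). The brightest Cop1 probe, which stands for the gene in the lists, had r = 0.56 with Mdm2. Ccng1 was followed by Tfam, the mitochondrial transcription factor (r = 0.99), and 6430550D23Rik (r = 0.99), and Cdkn1a by Cep350 (r = 0.97) and Rbsn (r = 0.96). For Trp53 the genes were Shmt2 and Gsdmd (r = 0.99 for each), for Gadd45a Slc39a10 (r = 0.99) and A730020M07Rik (r = 0.96), for Sesn1 Zfp579 (r = 0.98) and St3gal2 (r = 0.97), and for Igfbp7 Praf2 and Fgf18 (r = 0.99 for each). The probes of St3gal2 and A730020M07Rik were likewise not the brightest of their genes, which had r = 0.24 with Sesn1 and r = 0.15 with Gadd45a. Without TAC replicate 1 the correlations of the probes chosen were between 0.924 and 0.996.

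Other genes of the pathway were counted in 6 lists, with 1 probe per gene, and none of their genes passed an adjusted p of 0.05 in limma (0 in each list). Over all tested probes the median log2 fold change was -0.04. Among the 22 p53 regulators the median was 0.02 (-0.02 with normexp background correction), with 1 gene higher at an unadjusted p under 0.05 and 0 lower, against 4.24% and 8.61% of all tested probes. That gene was Rpl5, a ribosomal protein that binds Mdm2, at 4.87, 4.92 and 4.81 in Sham and 5.25, 5.08, 5.18 and 5.09 after TAC (difference 0.28, or 0.25 without TAC replicate 1, unadjusted p = 0.0118, adjusted p = 0.286 in limma).

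Of 35 p53 target genes beside the members, 29 were tested, with a median of -0.04, 1 higher and 3 lower at an unadjusted p under 0.05 in limma. With 4.24% of all tested probes higher and 8.61% lower, these counts are near the background, and the genes are given as values. Trp53inp1, a p53-induced nuclear protein that acts in autophagy and cell death, was at 2.96, 2.45 and 2.99 in Sham and at 4.46, 3.71, 3.49 and 4.21 after TAC. No TAC array reached down to a Sham array, and the difference of 1.17 (standard error 0.26), or 2.25-fold, exceeded that of any member (unadjusted p = 0.00286, adjusted p = 0.198 in limma). Its other probe differed by 1.24, and without TAC replicate 1 the first differed by 1.01. The 3 lower genes were Bbc3, which encodes the apoptosis inducer Puma (-0.58, unadjusted p = 0.0218 in limma), the death receptor gene Tnfrsf10b (-0.34, unadjusted p = 0.0114) and the epoxide hydrolase gene Ephx1 (-0.34, unadjusted p = 0.0160), each with every TAC array below every Sham array. The other Ephx1 probe differed by only -0.15 (unadjusted p = 0.0768 in limma). Their adjusted p-values in limma were 0.326, 0.281 and 0.303, and without TAC replicate 1 their differences were -0.55, -0.28 and -0.36.

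Among 19 paralogs of the members, 17 were tested (median -0.01, with 1 higher and 1 lower against the same shares of 4.24% and 8.61%). Gadd45b, the paralog of Gadd45a, was at 0.23, -0.22 and -0.28 in Sham and at 1.69, 0.08, 0.41 and 1.18 after TAC, with replicate 2 within the Sham range (difference 0.93, unadjusted p = 0.0469, adjusted p = 0.381 in limma). Like Gadd45a it was highest on TAC replicate 1, without which the difference was 0.64 (unadjusted p = 0.0763 in limma). In the table of 8 arrays Gadd45b was at 1.09 on Sham replicate 1, against a mean of 0.10 on the other Sham arrays, and differed by 0.67 (unadjusted p = 0.132 in limma). Cdkn2d, which encodes the p19Ink4d relative of the Cdkn2a product, was lower by -0.38 on the log2 scale with every TAC array below every Sham array (unadjusted p = 0.0293, adjusted p = 0.347 in limma), and by -0.40 without TAC replicate 1. It was also among the CDK inhibitors, RB family genes and G1 cyclins, of which 18 of 19 were tested (median -0.06). None was higher and 3 of the 18 were lower, against 8.61% of all tested probes. The other 2 were the cyclin E gene Ccne1 (-0.74, unadjusted p = 0.0180 in limma) and E2f3 (-0.33, unadjusted p = 0.0392), whose groups overlapped. Without TAC replicate 1 Ccne1 differed by -0.76, and E2f3 by -0.34 with an unadjusted p of 0.0535 in limma. The second probe of E2f3 differed by -0.10. That of Ccne1, well above background on 4 of the 7 arrays, differed by -0.60 (unadjusted p = 0.0805 in limma). In the table of 8 arrays the lists had 1 higher and 1 lower (p53 regulators), 1 and 4 (targets), 0 and 1 (paralogs) and 0 and 4 (CDK inhibitors), against 1562 and 3166 of all 33359 probes.

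Of 27 senescence-associated secretory factors, 15 were tested, with a median of 0.13. Of these 15, 0 were higher and 0 lower at an unadjusted p under 0.05 in limma (against 4.24% and 8.61% of all tested probes). Relative to Sham their mean was 1.11 on TAC replicate 1, while the remaining TAC arrays had means of -0.28 to 0.07, and without TAC replicate 1 the median was -0.16. Of the 12 that were not tested, 5 (Il1a, Il1b, Tnf, Mmp12 and Spp1) were well above background on TAC replicate 1 alone and 5, among them Il6, on no array. Cxcl1 and Mmp13 were so on Sham replicate 2 alone. Among the 6 untested p53 targets, 2 (Pmaip1 and Ckap2) were well above background on TAC replicate 1 alone and 4 on no array. The share over all untested probes was not counted, so these counts are given as values only. Of those tested, Tgfb1 (difference 0.38, unadjusted p = 0.0516 in limma), Igfbp3 (0.58, unadjusted p = 0.110) and Plau (-0.27, unadjusted p = 0.115) had the smallest p-values. In the table of 8 arrays 1 was higher (Tgfb1, unadjusted p = 0.0333 in limma) and 1 lower (Plau, unadjusted p = 0.0402 in limma). Of all 33359 probes, 1562 were higher and 3166 lower in that table. Among 19 other senescence-associated genes, 17 were tested (median 0.05, but -0.06 without TAC replicate 1 and -0.0097 with normexp). At an unadjusted p under 0.05 in limma, 0 were higher and 0 lower, against 4.24% and 8.61% of all tested probes. The smallest p-values were those of Cbx8 (-0.26, unadjusted p = 0.0861 in limma), Bmi1 (-0.26, unadjusted p = 0.0946) and Terf2 (-0.16, unadjusted p = 0.161), whose other 2 probes went the other way (0.17 and 0.30). Of these 17 genes, 1 was lower in the table of 8 arrays (Cbx8, unadjusted p = 0.0400 in limma), against 9.49% of all probes. The secretory list thus resembled Trp53, Igfbp7 and Gadd45a in being highest on TAC replicate 1, and Cdkn2a was not well above background even there. The macrophage (mean 1.28), lymphocyte (1.24) and proliferation (0.81) lists were also highest on that array. So were the skeletal muscle (1.61), fibroblast and preadipocyte (0.46) and other senescence (0.19) lists. The part of these lists in the secretory list was not tested.

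**Figure D4:**
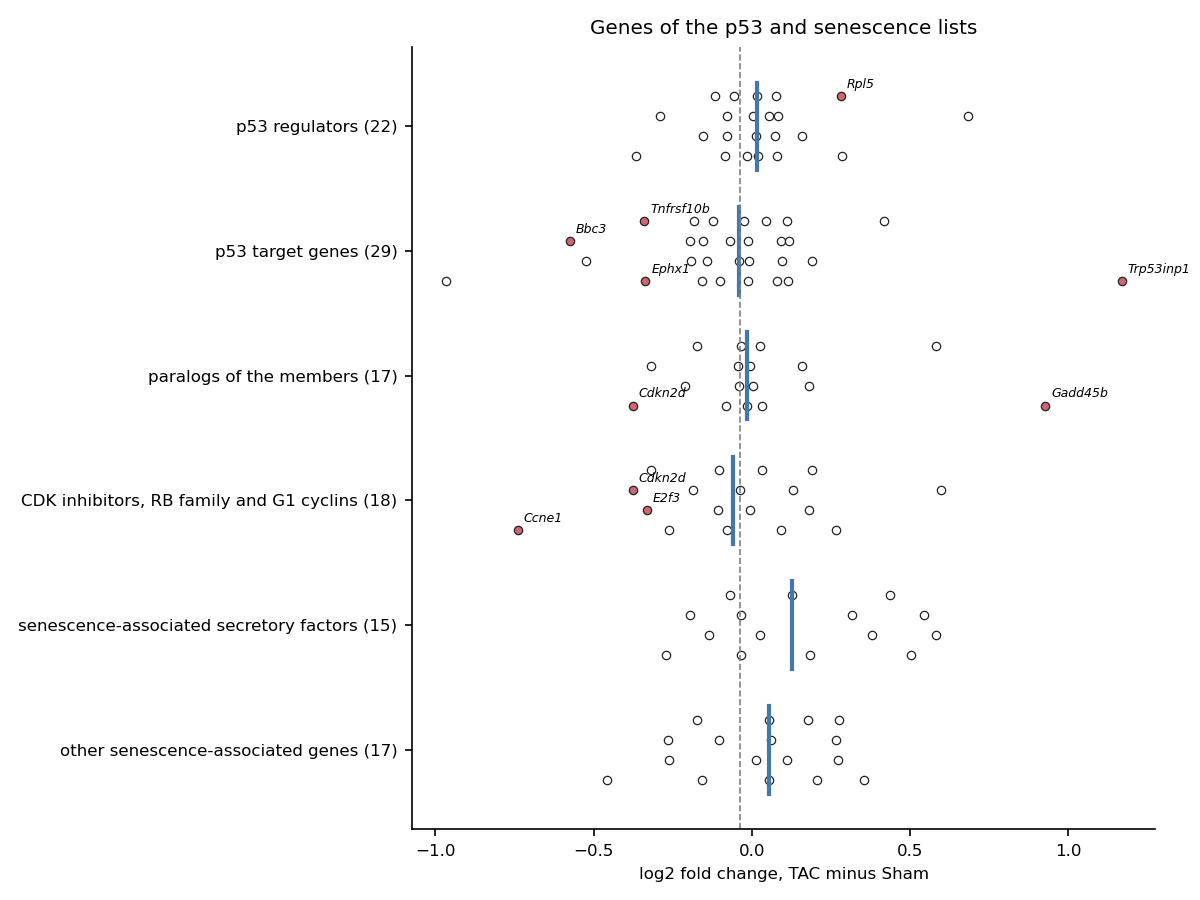
Log2 fold change of TAC over Sham for each tested gene of the 6 lists, with the number of genes in brackets. Filled points have an unadjusted p under 0.05 in limma, blue bars are list medians and the dashed line is the median of all tested probes.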

How the data were processed

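Total RNA of BAT was labelled with Cy3, hybridized and extracted by the authors with Agilent Feature Extraction 10.7.1.1, per the labels and file headers. The deposited scanner values are background-subtracted intensity, not scaled between arrays. For the brighter probes of the 7 scanned arrays, the deposited table holds the same intensity divided by the 75th percentile of each array. Of their values, at least 99.82% lay within 1% of a constant multiple. Dim probes, whose values can depart from it, were left out of this check. For Sham replicate 1, whose scanner values were not used here, the relation was not tested. Of 59305 spots, 134 to 191 marked as outliers were left out per array. Intensities were converted to log2, the 75th percentile of the array was subtracted, and spots of a probe were averaged. A probe was tested if 3 or more of the 7 arrays had it well above background and both groups had 2 or more measured values (33359 of 55681 probes). For TAC against Sham the functions lmFit and eBayes were used (R 4.3.3, limma 3.58.1), and p-values were adjusted over the tested probes by the Benjamini-Hochberg method. The script was tested on simulated data. The replicate number of the labels was not used as a block. Alternatives changed the background correction, scaling, filter, outlier spots, weights, test, block, probe summary, intensity table and arrays included. Symbols came from a RefSeq table of GRCm38.p6, which named 28026 probes (50.3%). The probe with the highest mean level stands for a gene. Genes were named by a rule: all members, list genes at an unadjusted p under 0.05 (at most 6 a list, otherwise the 3 smallest p), defining markers and the 2 most correlated genes. Some marker genes it gives are not printed. The members and lists were chosen with earlier results of these data known. The number of arrays limits the precision.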

Additional observations from a re-analysis of the deposited data

Results flagged for a closer look

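In 91 groups of 4 arrays (member probes, list means and named genes), the gap between the extreme array and its neighbour was set against the range of the group, and 11 exceeded Dixon's 95% critical value. All 11 were groups of TAC arrays. The 3 scanned Sham arrays were too few to form such a group, so their values, those of the members included, were not checked. Chance gives about 1 in 20 for a single group. These groups share arrays and some share genes, so that share is no measure for their count. No member probe was among the 11. In 9 of the 11 the array was TAC replicate 1. These were the macrophage list (gap 0.834 of the range), the proliferation list (0.956), Tnfrsf10b (0.830, the lowest array at 0.35 against 0.55 to 0.60), Lck (0.850), Ly6a (0.847), Adgre1 (0.919), Cd68 (0.838), Ptprc (0.902) and Mki67 (0.851). In the other 2, Cldn5 was highest on TAC replicate 4 (gap 0.873, at 3.01 against 2.18 to 2.28) and Hbb-bt lowest on TAC replicate 3 (gap 0.901, at 7.28 against 7.89 to 7.95).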

How the results depend on the processing

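Results were recomputed under 21 alternatives, or 20 for the counts of probes. Of 147 values of the 7 tested members, 137 kept their direction and their side of the adjusted threshold, and 10 changed sign. Sesn1 was 0.042 with quantile normalization, 0.016 in the table of 8 arrays and 0.016 there with the replicate number as a block, and -0.19 to 0.13 with single arrays left out. Igfbp7 was -0.11 in the table without TAC replicate 1, -0.065 with array weights, -0.12 with the replicate block over 7 arrays (which gives TAC replicate 1 no partner), and -0.12 to 0.23 with single arrays left out. Over all alternatives Trp53 ranged from 0.13 to 0.41, Mdm2 from -0.18 to -0.05, Cdkn1a from 0.14 to 0.61, Ccng1 from -0.23 to -0.11 and Gadd45a from 0.11 to 0.72.

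At an unadjusted p under 0.05, 1 member gene was higher with the replicate block in the table, with the mean over the probes of a gene, and without Sham replicate 4 (0 to 1 with single arrays left out), each time Cdkn1a. The mean over its probes includes the second probe, which is not read as a measured fold change, so that call carries the same limit. With the t-test 1 was lower, Ccng1. Probes higher at an adjusted p under 0.05 in limma numbered 0 to 6 with single arrays left out (6 without TAC replicate 4). Probes lower numbered 1 with normexp, 1 in the table of the same 7 arrays, 1 with array weights and 0 to 1 with single arrays left out. With the mean over the probes of a gene (28619 values, in which probes without a symbol stand alone), 1 was lower (adjusted p = 0.0499 in limma) and 0 higher. At an unadjusted p these ranges were 852 to 1506 and 1633 to 3047, and the t-test gave 1549 and 2647. The p53 regulators' median was -0.016 with normexp, -0.0044 with median centring, 0.065 with quantile normalization, 0.034 with array weights, 0.038 with the block over 7 arrays and -0.020 to 0.038 with single arrays left out. The other list medians also crossed 0 (paralogs -0.04 to 0.01, CDK inhibitors -0.11 to 0.01, secretory factors -0.26 to 0.22, other senescence genes -0.06 to 0.09), except that of the p53 targets (-0.09 to -0.01). The cause of these changes was not tested. Between arrays of equal replicate number, r of deviations was -0.0254 to 0.000952 for scanned arrays, and in the table it was 0.269 for replicate 1 and 0.0194 to 0.0568 for the others. The block gave 0 probes at an adjusted p under 0.05 in limma, with 1302 higher and 2536 lower at an unadjusted p over 7 arrays and 1587 and 3450 in the table. Signal over background limits Cdkn2a, the second Cdkn1a probe and the list genes that were not tested. These were 12 secretory factors, 6 p53 targets, 2 paralogs, 1 gene of the CDK inhibitor list and 2 other senescence-associated genes. It also limits Gdf15, counted as tested among the p53 targets and secretory factors. Gdf15 was well above background on 3 Sham arrays and 1 TAC array.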
